A study of Mus musculus with 51 samples.

Results

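The HSP70 family was followed at its promoters through meiotic prophase of mouse spermatocytes. The genes were chosen by name, by a rule that used no measured value, though earlier results of these data were known. They were 9 genes (Hspa1a, Hspa1b, Hspa1l, Hspa2, Hspa4, Hspa4l, Hspa5, Hspa8 and Hspa9) out of 20722 protein-coding genes on chromosomes 1 to 19. A gene was counted as having a peak in a list when a peak overlapped the 500 bp on either side of any of its protein-coding 5′ ends. The measure was the width in bp of the widest such peak, with 0 where there was none, because the lists hold intervals without heights, and the depth behind them is unknown.

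The nuclei came from whole testis of adult wild-type C57Bl/6J males and were sorted by flow cytometry into 5 stages running from leptonema and zygonema through early and late pachynema to diplonema, with SCP3 and STRA8 staining for leptonema and SCP3, H1t and SCP1 staining for the other stages. Leptonema therefore came from a separate sort, and the staining cannot be told apart from the stage. Per the study, the purity of the sorted nuclei differed between stages and experiments. It was highest in leptonema and lowest in zygonema of experiment 2, and its part in the widths was not tested. H3K4me3 was in 10 lists (an EpiCypher antibody, experiments 1 and 2 at each of 5 stages), H3K4me2/3 in 5 (an Abcam antibody, experiment 2) and H3K9ac in 5 (an Active Motif antibody, experiment 1). The antibody field of the H3K9ac samples names H3K4me3, while their titles name H3K9ac, and the title was followed here. Nothing in the labels says whether experiments 1 and 2 came from separate animals, so the p-values below measure only the spread between these libraries. The other 31 samples were not analysed here.

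HSP70 proteins are ATP-driven chaperones that hold and release unfolded stretches of other proteins, helped by J-domain proteins that start the ATP cycle and by exchange factors that end it. Most cells keep HSPA8 in the cytosol, HSPA5 (BiP) in the endoplasmic reticulum and HSPA9 (mortalin) in mitochondria at all times, and make HSPA1A and HSPA1B after heat or other stress. Male germ cells add their own forms: HSPA2, which spermatocytes need to finish the first meiotic division, and HSPA1L, which is known from later, haploid germ cells. HSPA4 and HSPA4L are larger HSP110-type relatives that act as exchange factors, and HSPA4L is abundant in testis. H3K4me3 and H3K9ac are histone marks found around active promoters, and H3K4me2 usually spreads farther to either side of them.

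The promoter windows of 5 members are shown because the results turn on them: Hspa2 had a peak in every list, Hspa1l and Hspa1a lie back to back, Hspa1b is a near copy of Hspa1a, and Hspa5 had no peak. RefSeq windows in GRCm38.p6 (the assembly that mm10 names) were found for 7 of the 9 members, without Hspa8 and Hspa9. Each runs 5′ to 3′ on the gene's strand, from 250 bases before to 50 bases from the RefSeq start. Capitals mark matches, on either strand, to the CCAAT box, to GAANNTTC or to GGGCGG (a GC box). They also mark matches to the endoplasmic reticulum stress element (ERSE, searched with its spacer of 9 bases). GAANNTTC is a pair of inverted units within a heat shock element.
Hspa2, chr12:76404120-76404419, plus strand: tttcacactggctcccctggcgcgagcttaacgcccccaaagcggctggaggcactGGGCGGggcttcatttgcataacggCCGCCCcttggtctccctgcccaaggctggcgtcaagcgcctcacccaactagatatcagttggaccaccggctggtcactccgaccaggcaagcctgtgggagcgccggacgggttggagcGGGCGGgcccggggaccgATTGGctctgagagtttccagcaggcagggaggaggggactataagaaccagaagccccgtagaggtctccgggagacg
Hspa1l, chr17:34972453-34972752, plus strand: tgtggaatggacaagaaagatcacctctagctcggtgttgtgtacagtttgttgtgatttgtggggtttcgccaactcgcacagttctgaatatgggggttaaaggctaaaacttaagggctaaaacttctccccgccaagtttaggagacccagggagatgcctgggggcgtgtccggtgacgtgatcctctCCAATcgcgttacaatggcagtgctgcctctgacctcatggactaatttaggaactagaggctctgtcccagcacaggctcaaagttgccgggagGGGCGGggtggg
Hspa1a, chr17:34972107-34972406, minus strand: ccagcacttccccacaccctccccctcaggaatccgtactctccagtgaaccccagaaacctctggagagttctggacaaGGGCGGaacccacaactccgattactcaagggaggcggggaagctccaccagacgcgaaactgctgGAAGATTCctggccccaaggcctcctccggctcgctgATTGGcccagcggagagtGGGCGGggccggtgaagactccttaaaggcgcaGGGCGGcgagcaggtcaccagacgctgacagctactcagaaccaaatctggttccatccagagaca
Hspa1b, chr17:34959189-34959488, minus strand: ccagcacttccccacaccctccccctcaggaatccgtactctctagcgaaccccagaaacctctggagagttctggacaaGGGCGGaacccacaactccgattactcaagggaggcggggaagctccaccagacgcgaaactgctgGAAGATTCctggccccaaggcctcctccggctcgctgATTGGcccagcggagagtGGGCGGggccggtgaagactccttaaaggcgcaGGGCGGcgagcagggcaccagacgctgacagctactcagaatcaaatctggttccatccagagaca
Hspa5, chr2:34771840-34772139, plus strand: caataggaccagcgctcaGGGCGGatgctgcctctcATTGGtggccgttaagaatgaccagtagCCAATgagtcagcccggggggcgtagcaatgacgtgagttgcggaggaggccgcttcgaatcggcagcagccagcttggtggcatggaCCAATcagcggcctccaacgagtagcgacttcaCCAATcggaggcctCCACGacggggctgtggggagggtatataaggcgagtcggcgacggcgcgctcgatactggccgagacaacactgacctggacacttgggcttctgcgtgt

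The Hspa2 window held 1 CCAAT and 3 GGGCGG matches, and the Hspa1l window held 1 of each. Hspa1a and Hspa1b each held 1 GAANNTTC match, 1 CCAAT match and 3 GGGCGG matches, and none of the other 5 windows held GAANNTTC. Hspa5 held 4 CCAAT matches, 1 GGGCGG match and 1 match to the stress element, which takes in one of the 4. Over all 32851 RefSeq windows of this length, 7.86% held GAANNTTC, 37.4% held CCAAT, 35.7% held GGGCGG and 0.119% held the stress element. TTCNNGAA, TATAAA and TGACGTCA had no match in any of the 7 windows and were in 8.52%, 13.6% and 1.79% of all windows. The Hspa1a and Hspa1b windows were identical in 296 of 300 aligned columns, whereas every other pair among the 7 stayed at or below 51.1% identity.

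The copy number of the sequence bears on what a peak list can show. Each word of 51 bases (the shorter of the study's read lengths) in the members' 5′ windows was looked up on both strands of the GRCm38 chromosomes. No word of the Hspa2, Hspa4, Hspa4l, Hspa5 or Hspa9 windows occurred a second time. In Hspa1a and in Hspa1b, 473 of 951 words (49.7%) had another copy, and these words lay between -203 and 500 bp of the 5′ end (negative values are upstream throughout). A read of this length from those words cannot be assigned to one of the genes. Hspa1l shared 107 of its 951 words with Hspa1b, in the stretch from -500 to -344 bp of its 5′ end where its window overlaps that of Hspa1a. Hspa8 had another copy of 26 of 1428 words.

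Hspa2 was marked in every list. It had a peak in 10 of 10 H3K4me3, 5 of 5 H3K4me2/3 and 5 of 5 H3K9ac lists, which 161 of 20722 protein-coding genes did (0.777%). Hspa4l and Hspa8 had peaks in 19 of 20 lists and Hspa4 in 18, whereas Hspa1b had 7, and Hspa1a and Hspa1l had 6 each. Hspa5 and Hspa9 had no peak in any list, as did 6745 protein-coding genes (32.5%). The map of widths by gene and list shows a full row for Hspa2, rows with gaps for 6 genes and empty rows for 2.

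**Figure D1:**
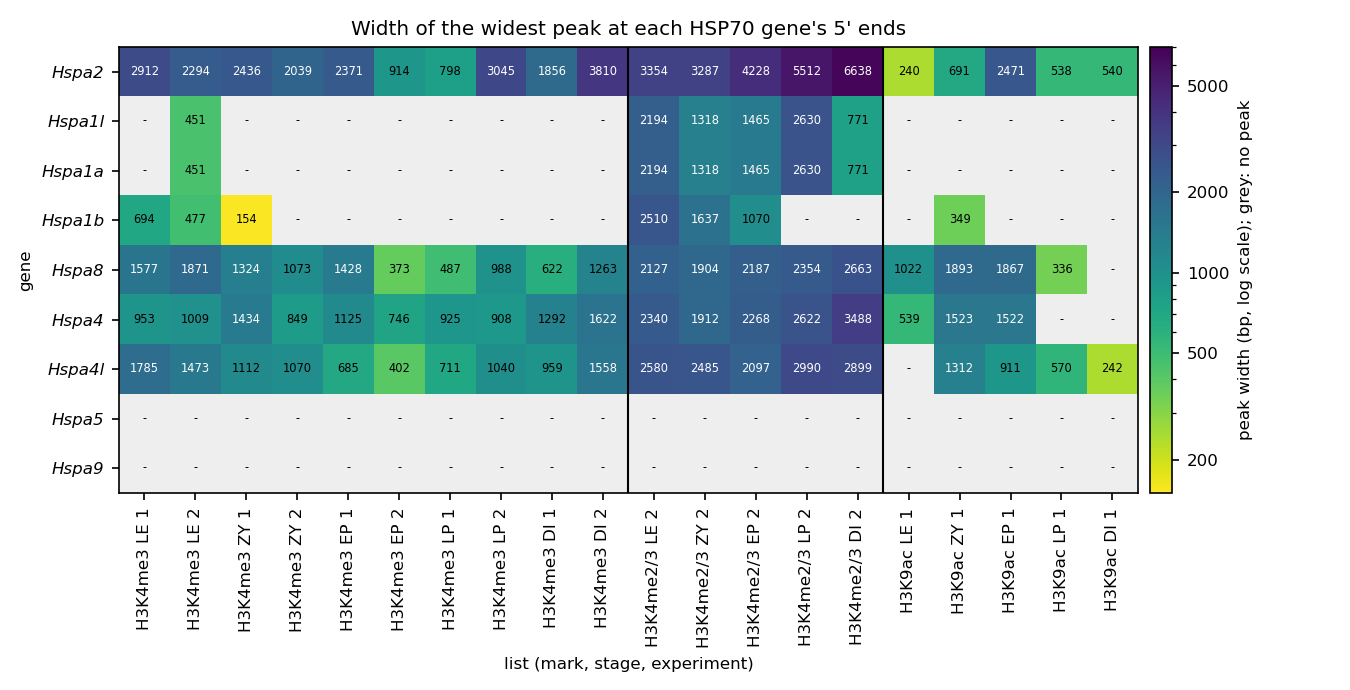
Width in bp (colour on a log scale, value printed in each cell) of the widest peak at the 5′ ends of each of the 9 HSP70 genes (rows) in each of the 20 lists (columns, named by mark, stage and experiment; LE leptonema, ZY zygonema, EP early pachynema, LP late pachynema, DI diplonema). Hspa2 fills its row, with 240 to 6638 bp, and the rows of Hspa5 and Hspa9 are empty (grey).

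The share of members with a peak is read against the share of all protein-coding genes with one in the same list. For H3K4me3 in leptonema, 5 members were marked in experiment 1 and 7 in experiment 2, beside 38.7% and 46.3% of all genes. In zygonema the members were 5 and 4, with 36.2% and 35.3% of all genes. In the 6 lists from early pachynema to diplonema the same 4 members (Hspa2, Hspa4, Hspa4l and Hspa8) had a peak each time. The share of all genes in these lists was, in the order of experiments 1 and 2, 33.6% and 25.2% for early pachynema, then 26.4% and 39.7% for late pachynema, and finally 28.7% and 46% for diplonema.

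H3K4me2/3 peaks lay at 7 members in leptonema, zygonema and early pachynema and at 6 in late pachynema and diplonema. All protein-coding genes reached 64.7%, 59.4%, 53.7%, 55.4% and 53.3% in the same order. H3K9ac peaks lay at 3, 5, 4, 3 and 2 members from leptonema to diplonema, with 14.8%, 41.1%, 35.3%, 8.27% and 1.99% of all genes. The H3K9ac diplonema list is short, with 516 peaks, and the members in it were Hspa2 and Hspa4l. With 9 members and 1 list a stage for these antibodies, no test was made of these shares.

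**Figure D2:**
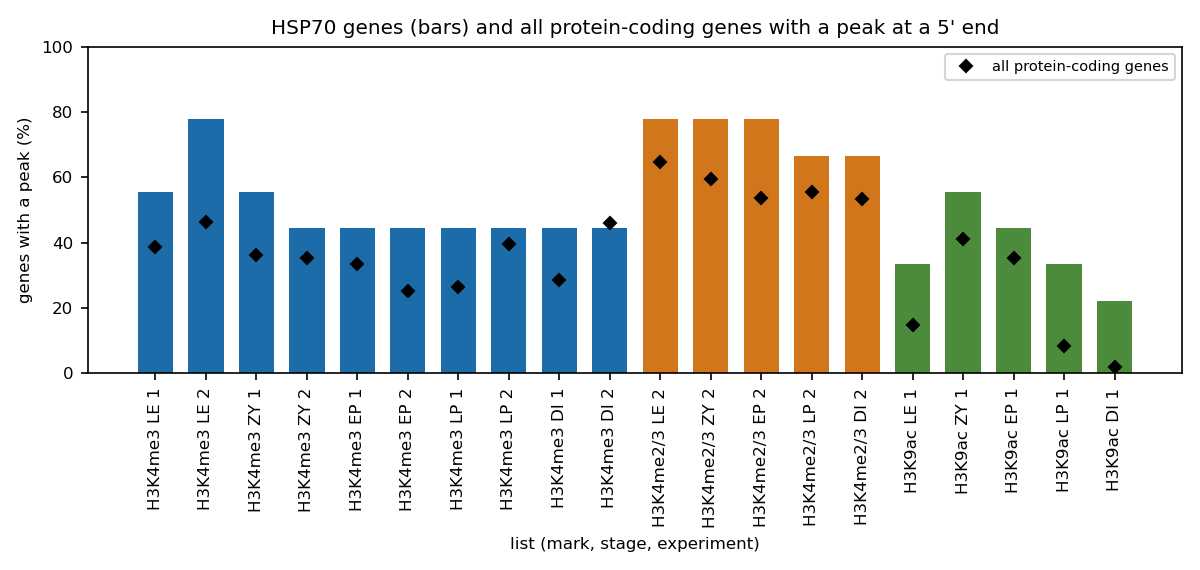
Percentage of the 9 HSP70 genes with a peak at a 5′ end (bars, coloured by mark) and of all 20722 protein-coding genes (black diamonds) in each of the 20 lists, named by mark, stage and experiment. The members' bar stands above the diamond in 19 lists and below it in the H3K4me3 list of diplonema, experiment 2, with 4 of 9 members against 46%.

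Over the 10 H3K4me3 lists, Hspa2 had the widest mean peak of the family, 2248 ± 922 bp (SD, n = 10), the 20th widest of 9995 genes with a peak in at least 2 of these lists. Hspa8, Hspa4 and Hspa4l followed at 1101 ± 489, 1086 ± 280 and 1080 ± 428 bp, 3 means that lay within one another's spread. Hspa1b came next at 133 ± 249 bp, and Hspa1a and Hspa1l shared a mean of 45.1 ± 143 bp from 1 peak. Hspa2 was also the widest by H3K4me2/3, with 4604 ± 1449 bp (n = 5, 1 list a stage). The next in H3K4me2/3 were Hspa4l at 2610 ± 356, Hspa4 at 2526 ± 594 and Hspa8 at 2247 ± 283 bp, again within one another's spread.

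Hspa2 (chr12, plus strand, 5′ ends at 76404176 and 76404409) encodes the HSP70 of spermatocytes. Its H3K4me3 peak measured 2912 and 2294 bp at leptonema in experiments 1 and 2, 2436 and 2039 bp at zygonema, 2371 and 914 bp then at early and 798 and 3045 bp at late pachynema, and 1856 and 3810 bp at diplonema. Every early list was thus at or above 2039 bp, while the later lists ran on both sides of that value, and the highest and lowest of all 10 were both later ones. Among genes with a peak in the same list, the Hspa2 width lay at the 78.9th to 99.9th percentile, with a median of 99.4.

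The position of the H3K4me3 peak differed between lists as well as its width. In 7 lists it began between -1219 and -812 bp of the more upstream 5′ end and covered both ends. In early pachynema of experiment 2, late pachynema of experiment 1 and diplonema of experiment 1, it began 56, 93 and 69 bp downstream of that end and covered the second one only, 233 bp further on. Those 3 lists hold 4883, 5189 and 6645 peaks, the 3 shortest of the 10, next to 6647 in early pachynema of experiment 1, where the whole stretch was covered. Per the study, the libraries of those 3 lists also had the lowest enrichment measure (SPoT, all peaks) of the 10 and the most starting chromatin DNA. A part of list length, enrichment or chromatin amount in this difference was not tested. The lincRNA 4930426I24Rik starts 194 bp away on the opposite strand, and its start lay under the Hspa2 peak in 14 of 20 lists, so the marks upstream cannot be assigned to one of these transcripts.

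With the H3K4me2/3 antibody, the Hspa2 peak measured 3354 and 3287 bp in the leptonema and zygonema lists, 4228 and 5512 bp at early and late pachynema, and 6638 bp at diplonema. The 3 later widths all exceeded the early pair, though with 1 list a stage the difference has no replicate check. The upstream edge stayed between -1852 and -1224 bp of the more upstream 5′ end, while the downstream edge moved out from 1981 and 2062 bp to 2625, 3659 and 4964 bp. The Hspa2 gene is 2763 bp long, so the late pachynema and diplonema peaks ran beyond its 3′ end. Median widths over all genes with a peak in these lists were 1437, 1320, 1255, 1752 and 1858 bp, and the Hspa2 peak held the 97.4th to 99.8th percentile among them.

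H3K9ac at Hspa2 measured 240 and 691 bp in the leptonema and zygonema lists, 2471 and 538 bp at early and late pachynema, and 540 bp at diplonema. Early pachynema stood apart, with a peak covering both 5′ ends and about as wide as H3K4me3 in the same stage and experiment (ratio 1.04). In the other 4 stages the H3K9ac peak was narrower than H3K4me3, with ratios of 0.0824 to 0.674. The leptonema peak ended at -278 bp, and the late pachynema and diplonema peaks started 121 and 78 bp downstream of it. Lists of this antibody held 2823, 16003, 7744, 1727 and 516 peaks, and the part of list length in these widths was not tested.

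**Figure D3:**
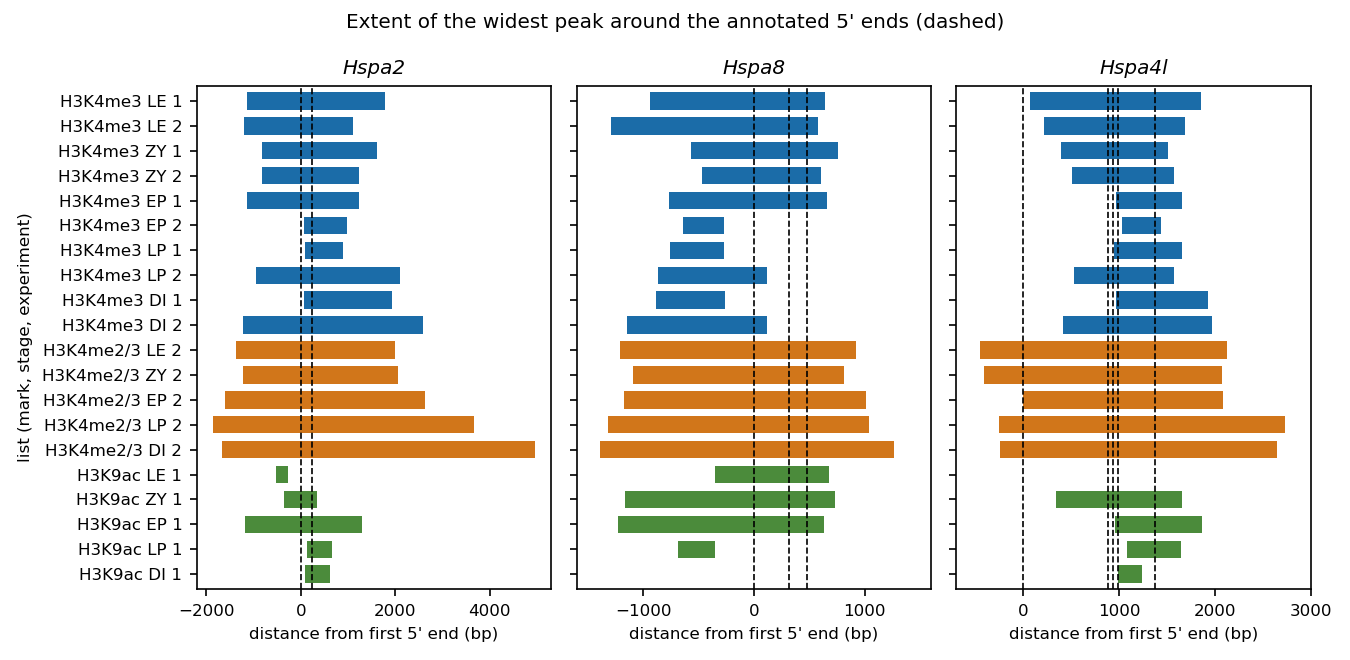
Extent of the widest peak (bars, coloured by mark) relative to the most upstream annotated protein-coding 5′ end, in bp, at Hspa2, Hspa8 and Hspa4l in each of the 20 lists; dashed lines mark the annotated 5′ ends. At Hspa2 the H3K4me2/3 peak reaches 4964 bp downstream in diplonema, at Hspa8 the H3K4me3 peak stops upstream of the 5′ end in 3 later lists, and at Hspa4l every H3K4me3 peak starts downstream of the most upstream end.

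Hspa8 (chr9, plus strand, 5′ ends at 40800984, 40801302 and 40801461) encodes the constitutive cytosolic HSC70. Its H3K4me3 peak measured 1577 and 1871 bp at leptonema in experiments 1 and 2, 1324 and 1073 bp at zygonema, 1428 and 373 bp then at early and 487 and 988 bp at late pachynema, and 622 and 1263 bp at diplonema. The 4 early values and 2 later ones lay above 1000 bp, so the groups overlapped. The downstream edge lay 582 to 760 bp past the most upstream 5′ end in the 4 early lists and in early pachynema of experiment 1. In the other 5 later lists it lay between -271 and 121 bp, and in 3 of them (the same 3 short lists as for Hspa2) the peak touched no annotated 5′ end.

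H3K4me2/3 covered all 3 Hspa8 5′ ends at every stage, with widths of 2127, 1904, 2187, 2354 and 2663 bp from leptonema to diplonema. H3K9ac measured 1022, 1893, 1867 and 336 bp, with no peak in diplonema. The late pachynema H3K9ac peak lay from -683 to -348 bp and left the 5′ ends uncovered, as the short H3K4me3 peaks did. Hspa8 and Hspa2 thus differed in the short lists: the part left at Hspa8 was upstream and the part left at Hspa2 downstream of the most upstream 5′ end.

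Hspa4 (chr11, minus strand, 5′ end at 53300457), an HSP110-type exchange factor, had the most even H3K4me3 peak of the family. It measured 953 and 1009 bp at leptonema in experiments 1 and 2, 1434 and 849 bp at zygonema, 1125 and 746 bp then at early and 925 and 908 bp at late pachynema, and 1292 and 1622 bp at diplonema. No stage stood apart, and the zygonema pair alone ran from 849 to 1434 bp. H3K4me2/3 measured 2340, 1912, 2268, 2622 and 3488 bp, 2.15 to 3.04 times the H3K4me3 width of the same stage and experiment. H3K9ac measured 539, 1523 and 1522 bp in leptonema, zygonema and early pachynema and was not called in late pachynema or diplonema, where all genes together fell to 8.27% and 1.99%.

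Hspa4l (chr3, plus strand, most upstream 5′ end at 40744495) has 5 annotated protein-coding 5′ ends, the others 887, 935, 989 and 1373 bp further on. Its H3K4me3 peak measured 1785 and 1473 bp at leptonema in experiments 1 and 2, 1112 and 1070 bp at zygonema, 685 and 402 bp then at early and 711 and 1040 bp at late pachynema, and 959 and 1558 bp at diplonema. All 4 early widths exceeded 5 of the 6 later ones, diplonema of experiment 2 being the exception. Every H3K4me3 peak began downstream of the most upstream 5′ end, by 68 to 1032 bp, and left that end uncovered. Early pachynema of experiment 2, the narrowest, covered only the end at 1373 bp. H3K4me2/3 covered all 5 ends at every stage, with 2097 to 2990 bp. H3K9ac was not called in leptonema, in a list of 2823 peaks, and measured 1312, 911, 570 and 242 bp in the stages that followed. The lists of those stages held 16003, 7744, 1727 and 516 peaks, and the part of list length was not tested.

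Hspa1l (chr17, plus strand, 5′ end at 34972703) and Hspa1a (chr17, minus strand, 5′ end at 34972156) point away from each other with 547 bp between their 5′ ends. Their windows overlap, and in every list where one had a peak the same peak served the other. Hspa1l belongs to the testis and Hspa1a to the stress response, and the lists cannot assign the peak to either gene. The H3K4me3 antibody gave 1 peak here, of 451 bp, in leptonema of experiment 2, and none in the other 9 lists. That peak covered the Hspa1a 5′ end and stopped 209 bp short of the Hspa1l 5′ end.

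H3K4me2/3 was present at the shared Hspa1l and Hspa1a promoter at all 5 stages, with widths of 2194, 1318, 1465, 2630 and 771 bp. The peak covered both 5′ ends in leptonema, early pachynema and late pachynema. It covered Hspa1a alone in zygonema, where it ended 21 bp short of Hspa1l, and Hspa1l alone in diplonema, where it ended 19 bp short of Hspa1a. H3K9ac was not called at either gene in any list, and the nearest H3K9ac peak to Hspa1l was 8685 bp away or more. In the leptonema, zygonema and early pachynema lists the peak extended mostly over the Hspa1a side, by 770 to 1558 bp past its 5′ end, against at most 147 bp past that of Hspa1l. In late pachynema it ran 1072 bp into Hspa1l and 1010 bp into Hspa1a, and in diplonema 242 bp into Hspa1l. These positions come from 1 list a stage and were not tested.

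Hspa1b (chr17, minus strand, 5′ end at 34959238), the second stress-inducible gene, had H3K4me3 peaks of 694 and 477 bp in leptonema and of 154 bp in zygonema of experiment 1. The list of zygonema, experiment 2, and all 6 later lists had none. H3K4me2/3 followed the same order, with 2510 bp in leptonema, 1637 in zygonema, 1070 in early pachynema and none within the window in late pachynema or diplonema. In late pachynema a peak of 357 bp lay 507 bp from the 5′ end, just outside the window of 500 bp, and in diplonema the nearest was 6188 bp away. H3K9ac was called once, at 349 bp in zygonema. The 2 narrower H3K4me3 peaks and the H3K9ac peak lay wholly upstream of the 5′ end, and the zygonema H3K4me3 peak, from -290 to -137 bp, overlapped the stretch that holds the 51-base words shared with Hspa1a.

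**Figure D4:**
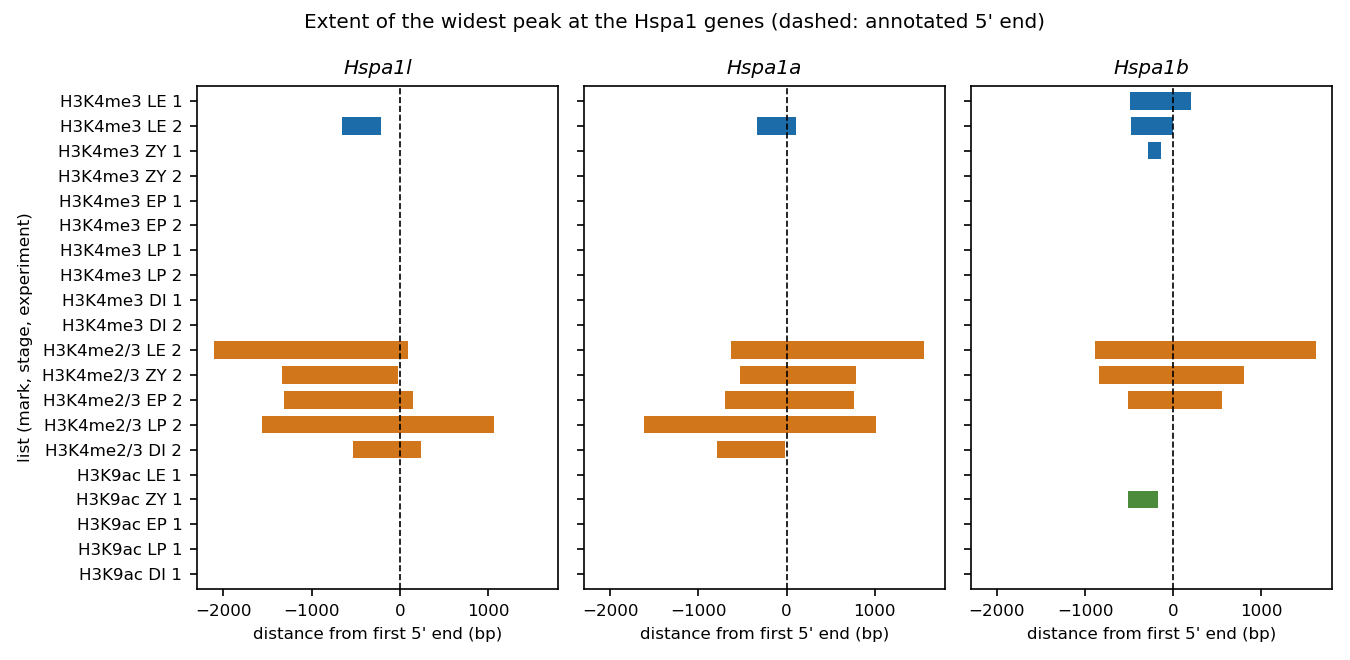
Extent of the widest peak (bars, coloured by mark) relative to the annotated 5′ end (dashed line) of Hspa1l, Hspa1a and Hspa1b, in bp along each gene's own direction, in each of the 20 lists. Hspa1l and Hspa1a show the same peaks from opposite sides, with H3K4me2/3 at all 5 stages, whereas Hspa1b has no peak within its window in late pachynema or diplonema, the nearest H3K4me2/3 peak in late pachynema lying 507 bp away.

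Markers of other cells matched the Hspa1 peaks only in part. Of 5 spermatogonial markers, Dmrt1 had an H3K4me3 peak in the same 3 lists as Hspa1b, and Kit in leptonema of experiment 2, while Zbtb16, Gfra1 and Nanos3 had none in the 10 lists. Of 5 Sertoli cell markers, Sox9, Wt1 and Gata4 had a peak in leptonema of experiment 2 (the list with the Hspa1l and Hspa1a peak) and Wt1 in zygonema of experiment 2, with none at Amh or Cldn11. No Hspa1 gene had an H3K4me3 peak in zygonema of experiment 2. In leptonema and zygonema of experiment 1, where Hspa1b had one, the Sertoli count was 0 of 5. Across the H3K4me3 lists the spermatogonial count was 0 to 2 of 5 in the early group and 0 in the later group, and the Sertoli count was 0 to 3 of 5 and 0. The share of all protein-coding genes with a peak in these lists was 25.2% to 46.3%. In the H3K4me2/3 lists, from leptonema to diplonema, the spermatogonial count was 4, 4, 2, 3 and 2 of 5 and the Sertoli count 4, 2, 1, 1 and 1 of 5. The shares of all genes in the same order were 64.7%, 59.4%, 53.7%, 55.4% and 53.3%. The Hspa1l and Hspa1a peak of this antibody was present at all 5 stages and was widest, at 2630 bp, in late pachynema. In the H3K9ac lists, from leptonema to diplonema, the spermatogonial count was 0, 3, 0, 0 and 0 of 5. The Sertoli count was 0 in each. The 3 were Zbtb16, Gfra1 and Dmrt1 in zygonema, the list with the Hspa1b H3K9ac peak of 349 bp. All genes reached 14.8%, 41.1%, 35.3%, 8.27% and 1.99% in the same order. The nuclei had been gated on replicated DNA content and SCP3 staining, and per the study no sorted pool held its own stage alone. The part of such cells in the Hspa1 peaks was not tested. Fewer nuclei with a mark and less mark in each nucleus cannot be told apart in these pools.

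Of the genes behind the sort, Sycp3 had an H3K4me3 peak in all 10 lists, Sycp1 in 8 and Stra8 in the leptonema pair alone. Hist1h1t, which encodes H1t, had one in leptonema of experiment 1 and in zygonema of experiment 2 but in none of the 6 later lists. By H3K4me2/3 it had a peak in zygonema and early pachynema alone. The sort used the H1t protein as a marker of later stages, and a peak call does not measure protein. None of the 5 spermatid genes (Prm1, Prm2, Tnp1, Tnp2 and Acrv1) had an H3K4me3 peak in any of the 10 lists, and of 5 Leydig cell genes only Insl3 did, in diplonema of experiment 2. Over all protein-coding genes, 45.9% had no H3K4me3 peak in the 10 lists.

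Hspa5 (chr2, plus strand, 5′ ends at 34771970 and 34772095) and Hspa9 (chr18, minus strand, 5′ end at 34954357), the members of the endoplasmic reticulum and of mitochondria, had no peak in any of the 20 lists. The nearest H3K4me3 peak was 11980 to 17654 bp from Hspa5 and 15523 to 164276 bp from Hspa9. A H3K4me2/3 peak of 338 bp lay 3822 bp from Hspa5 in late pachynema, and at the other 4 stages the nearest was 11793 to 16940 bp away. At Hspa9 the H3K4me2/3 peaks stayed 15271 to 21540 bp away. The Hspa5 promoter window was 61.3% G and C, at the 74.6th percentile of all RefSeq windows, and had a CpG observed to expected ratio of 0.901, at the 87.4th. These values and the absence of repeated 51-base words are measured facts about the sequence, and the reason for the missing peaks was not tested. A missing peak says that none passed the authors' threshold, not that the mark is absent.

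Whether H3K4me3 width differed between early stages (leptonema and zygonema, 4 libraries) and later ones (early pachynema, late pachynema and diplonema, 6 libraries) was tested for every gene with a peak in at least 2 of the 10 lists. The test was a two-sided exact permutation test over libraries, whose smallest p is 0.00952, with Benjamini-Hochberg adjustment over all 9995 genes tested. No gene passed an adjusted p of 0.05 (0%), the smallest being 0.129. With p bounded in this way, an adjusted p below 0.05 would need a large share of all genes at the smallest p. The lack of passing genes therefore does not show that no width differed. Without adjustment, the exact p was below 0.05 for 1394 genes wider early (13.9%) and 362 wider later (3.62%), and for 614 genes (6.14%) every early library was wider than every later one. These counts include genes that passed the filter through early or later libraries alone. The median difference over all genes was 99 bp in favour of the early stages, and 62.4% of genes were wider early. The early lists held 9528 to 15699 peaks and the later ones 4883 to 12071, and a gene without a peak counted as 0 bp. How far list length enters this shift was not tested.

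Of the 9 members, 5 could be tested (Hspa1b, Hspa2, Hspa4, Hspa4l and Hspa8), beside 9995 of all 20722 protein-coding genes. Hspa1a and Hspa1l, with 1 library each, and Hspa5 and Hspa9, with none, fell below the filter. Hspa1b passed the filter through its 3 early peaks alone, so its difference is a description. Of the other 4, none had an adjusted p or an unadjusted p below 0.05, and none had early and later groups that did not overlap.

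Hspa8 measured 1461 ± 342 bp early and 860 ± 432 bp later, a difference of 601 bp (exact permutation p = 0.0667, adjusted 0.294). It was nearly the same in experiment 1 (605 bp) and in experiment 2 (597 bp). Hspa4l measured 1360 ± 336 bp early and 893 ± 396 bp later (difference 468 bp, exact permutation p = 0.0952, adjusted 0.359), with 664 bp in experiment 1 and 272 bp in experiment 2. Hspa1b measured 331 ± 313 bp early and 0 bp in each later library.

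Hspa2 measured 2420 ± 367 bp early and 2132 ± 1187 bp later, a difference of 288 bp (exact permutation p = 0.657, adjusted 0.848). The experiments went opposite ways, with early minus later at 999 bp in experiment 1 and at -423 bp in experiment 2. Hspa4 measured 1061 ± 257 bp early and 1103 ± 317 bp later (exact permutation p = 0.848, adjusted 0.942), and here too the experiments split, with 79.5 and -163 bp early minus later. For these 2 genes no direction between early and later stages was detectable at this spread. Within one experiment, 2 early against 3 later libraries cannot be tested at 0.05, so the values by experiment are descriptions.

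**Figure D5:**
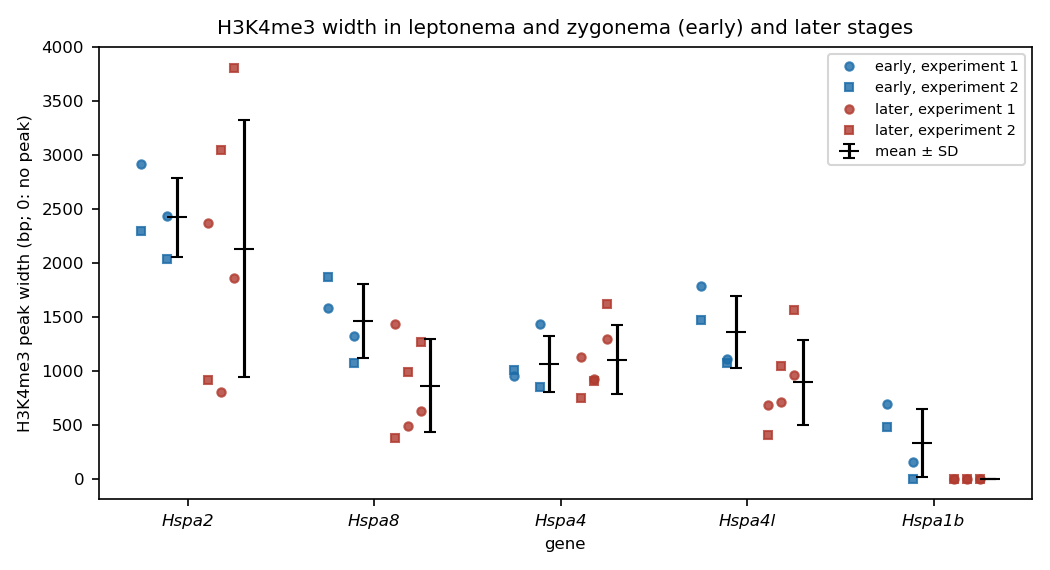
H3K4me3 peak width in bp (0 where no peak) at the 5 tested HSP70 genes in the 4 early (blue) and 6 later (red) libraries, circles for experiment 1 and squares for experiment 2, with the mean and SD of each group in black. The groups overlap at every gene: all 6 later Hspa1b values are 0, as is 1 early value.

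Between antibodies, the H3K4me2/3 peak was the wider one at every stage at which a member had an H3K4me3 peak in experiment 2. At Hspa2 it was 1.46, 1.61, 4.63, 1.81 and 1.74 times the H3K4me3 width of the same stage in experiment 2. The medians over all genes with both peaks were 1.83, 2.58, 3.55, 2.97 and 2.11, so Hspa2 stood above the median in early pachynema, where its H3K4me3 peak was short, and below it at the other 4 stages. For Hspa8 the ratio ran from 1.14 in leptonema to 5.86 in early pachynema, and for Hspa4l from 1.75 to 5.22. Per the study, the 2 early pachynema lists of experiment 2 came from chromatin preparations of different purity and amount, and the part of this in the early pachynema ratios was not tested. With 5 stage pairs a paired exact test cannot go below p = 0.0625, and none was made.

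H3K9ac against H3K4me3 of experiment 1 gave wider H3K9ac peaks at Hspa8 and Hspa4 in zygonema and early pachynema and narrower or missing ones at the other 3 stages. Hspa4l was wider in zygonema and early pachynema as well, by up to 1.33 times. At Hspa2 the ratio was 0.0824 in leptonema. No ratio was formed where an H3K9ac peak was missing beside an H3K4me3 peak, as at Hspa4l and Hspa1b in leptonema, Hspa4 in late pachynema and diplonema, and Hspa8 in diplonema. Over all genes with both peaks the median ratio was 0.551, 1.47, 1.31, 0.591 and 0.269 from leptonema to diplonema, so the wider zygonema and early pachynema peaks were also the rule for other genes, and Hspa2 in zygonema, at 0.284, was below it.

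The partners of HSP70 were described by the same measure. Of all 20722 protein-coding genes, 9995 could be tested, a share to be read beside the number tested in each list here and below. Of 28 J-domain proteins, 21 could be tested, and without adjustment 3 were wider early and 3 wider later at an exact p below 0.05, with none past the adjusted threshold and a median difference of -66.7 bp. Over all genes tested 13.9% were wider early and 3.62% wider later by the same p. Dnajb2 had no H3K4me3 peak in the 4 early libraries and one in all 6 later ones (784 ± 659 bp). It passed the filter through the later libraries alone, so no p is given, although it is counted among the 3 wider later above. Dnajb14 measured 589 ± 238 bp early and 1158 ± 495 bp later (exact permutation p = 0.0381, adjusted 0.249) and had a peak in all 20 lists, as Hspa2 did. Dnajc9, a cochaperone of histones, measured 993 ± 70.6 bp early and 170 ± 263 bp later (exact permutation p = 0.00952, adjusted 0.129). Dnajb11, which serves BiP in the endoplasmic reticulum, measured 1030 ± 366 bp early and 396 ± 318 bp later (exact permutation p = 0.0286, adjusted 0.22). Of the 28, 6 (Dnaja3, Dnajb3, Dnajb7, Dnajb8, Dnajb9 and Dnajc5b) had no H3K4me3 peak in any of the 10 lists, as did 45.9% of all protein-coding genes.

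Exchange factors all had peaks in at least 2 lists, 9 of 9, with a median difference of 152 bp and without adjustment 1 gene in each direction at an exact p below 0.05, beside 13.9% of all genes tested wider early and 3.62% wider later. Hspbp1 measured 825 ± 213 bp early and 437 ± 142 bp later (exact permutation p = 0.00952, adjusted 0.129), and Bag2 533 ± 409 and 140 ± 218 bp. Bag5 went the other way, with 913 ± 121 bp early and 1199 ± 234 bp later (exact permutation p = 0.0476, adjusted 0.271). None passed after adjustment.

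Among 6 other genes of the superfamily, 4 could be tested and 1, wider early, had an unadjusted p below 0.05, beside 13.9% of all genes tested. That was Hspa14, a ribosome-associated relative, with 764 ± 88.1 bp early and 384 ± 326 bp later (exact permutation p = 0.0381, adjusted 0.249). Hspa13 measured 585 ± 137 and 307 ± 369 bp, and Hsph1 (HSP105) 710 ± 189 and 917 ± 560 bp, neither below 0.05. Hspa12a and Hspa12b had no H3K4me3 peak.

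No gene had an unadjusted p below 0.05 among the 5 tested of 7 partners and HSP90 genes, the 3 tested of 4 heat shock factors or the 4 HSPA2 partners known from spermatocytes. Hsp90ab1, the constitutive HSP90, measured 1150 ± 575 bp early and 605 ± 467 bp later, the ubiquitin ligase gene Stub1 817 ± 260 and 629 ± 354 bp, and St13 1207 ± 298 and 1234 ± 460 bp. Hsp90b1, the HSP90 of the endoplasmic reticulum, and Stip1, which bridges HSP70 and HSP90, had no H3K4me3 peak in any list, like Hspa5 and Hspa9. Among the heat shock factors, Hsf5 measured 1004 ± 147 bp early and 1209 ± 481 bp later, Hsf2 731 ± 112 and 431 ± 474 bp, and Hsf1, the factor of the heat shock response, 782 ± 307 and 619 ± 392 bp, while Hsf4 had none. Cdk1, whose cyclin complex HSPA2 helps to form, measured 392 ± 349 bp early and 539 ± 355 bp later, Bag6 849 ± 142 and 943 ± 507 bp, and Sycp1 926 ± 109 and 755 ± 710 bp. The median differences of the 3 groups were 163, 163 and -59.5 bp, beside 99 bp over all genes tested.

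The genes whose pattern over the 20 lists was most like that of Hspa2, by Spearman correlation of width percentile among 10932 genes with a peak in at least 5 lists, were Ado (rho 0.83), Dcp1b (0.83) and Ccdc127 (0.81). For Hspa1l they were Hspa1a, which shares its peaks, and Aldoa and Eml1, each with rho 1 and a peak in the same 6 lists. All 20 points share antibodies and list lengths between genes, and 14 of them are 0 for Hspa1l, so these values describe likeness and carry no test.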

How the data were processed

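Chromatin immunoprecipitation with sequencing was analysed from 20 peak lists of sorted mouse spermatocyte nuclei. Per the study's methods, the authors aligned reads to mm10 with BWA mem 0.7.12 and called broad peaks with MACS2 2.1.2 against stage-matched input; the control used for H3K9ac is not given in the sources used here. The submitters' processing notes also name deepTools 3.0.1. The deposited lists hold chromosome, start and end, with no height, fold enrichment or score, so read depth is unknown and no interval for counting error can be given. The lists hold 516 to 30943 peaks on chromosomes 1 to 19.

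Peaks were assigned to 5′ ends of protein-coding transcripts (GENCODE M21, mm10) with a window of 500 bp on either side and an overlap of at least 1 bp. Width was taken from the widest peak, 0 where none. Genes with a peak in at least 2 of 10 H3K4me3 libraries were tested, early (4 libraries) against later (6), by an exact two-sided permutation test with Benjamini-Hochberg adjustment and a threshold of 0.05 (Python 3.11.15, numpy 2.4.6, scipy 1.17.1). The test was tried on simulated data, and its p cannot go below 0.00952. limma 3.58.1 on log2(width + 100 bp) was an alternative, along with other windows, transcripts, overlaps, measures, list lengths, the filter, the experiment number as replicate block, and leaving out each library.

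The members and lists were chosen with earlier results of these data known. Beside the members, each partner list gives up to 2 genes with the largest mean difference in each direction; for Hspa2 and Hspa1l the 3 most alike genes are named, and any gene sharing a member's peak. Promoter sequences came from RefSeq windows, and motifs were searched on both strands. Words of 51 bases were counted on the 21 chromosomes of GRCm38.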

Additional observations from a re-analysis of the deposited data

Results flagged for a closer look

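A test for single libraries far from the rest (Dixon's ratio of the end gap to the range, at the 95% level, which chance passes in about 1 of 20 groups) was applied to the members' H3K4me3 widths in the 4 early and the 6 later libraries, 11 groups with any spread. It picked out the same peak for 2 genes, where 3 values at 0 make the ratio 1 whatever the width, so it says only that 1 list had a peak and the rate of 1 in 20 does not apply. At Hspa1a the library of leptonema, experiment 2, measured 451 bp and the other 3 early libraries 0. At Hspa1l the value was 451 bp as well, since the peak is shared. The same list had H3K4me3 peaks at the Sertoli cell markers Sox9, Wt1 and Gata4, and it is the longest but one of the 10, with 13095 peaks. Whether either bears on the Hspa1a and Hspa1l peak was not tested.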

How the results depend on the processing

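No member tested passed the adjusted threshold under the 22 alternatives to the early against later test (20 for Hspa1b, which fell below the filter with lists of equal length or with the wider peaks of each list), and across all genes 0 passed in 21 of them, the leave-one-out range being 0 to 0. The exception was limma on log2(width + 100 bp), with 433 genes past it (373 wider early, 60 wider later), none a member; Hspa1b came nearest there, with a log2 difference of 1.72 and adjusted p = 0.0808, beside a median log2 difference of 0.34 over all genes. The experiment number as replicate block gave 0 genes and 0 members. In every alternative but limma the exact test sets a smallest p, so the 0 counts follow largely from that floor and do not show stability. Deviations of experiment 1 from the stage means correlated between stages by -0.19 to 0.34, above 0.1 in 2 of 10 stage pairs. The highest was between late pachynema and diplonema. These correlations cannot say whether the libraries of one experiment share an effect. Without adjustment, width percentile within each list gave an exact permutation p of 0.0476 for Hspa8 and 0.019 for Hspa4l, and covered bases gave 0.0476 for both. Without zygonema of experiment 2 the exact permutation p was 0.0476 for Hspa8 and 0.0238 for Hspa1b, without early pachynema of experiment 1 it was 0.0317 for Hspa8, and without diplonema of experiment 2 it was 0.0159 for Hspa4l, while limma gave 0.00604 for Hspa1b. Hspa1b passed the filter through early libraries alone, so its p-values carry no weight. Adjusted p over the alternatives was 0.227 to 1 for Hspa8, 0.119 to 1 for Hspa4l, 0.0808 to 1 for Hspa1b, 0.53 to 1 for Hspa2 and 0.654 to 1 for Hspa4. Hspa4 reversed from -41.8 bp to 120 bp by covered bases, to 29 bp without zygonema of experiment 2 and to 62.1 bp without diplonema of experiment 2. Leaving out 1 library moved the Hspa4 difference between -166 and 62.1 bp, the Hspa2 difference between 21.1 and 623 bp and that of Hspa1b between 210 and 442 bp.

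Of 90 pairs of member and H3K4me3 list, 45 had a peak, and 39 to 46 did under the alternatives. H3K4me2/3 gave 33 of 45 (31 to 34). H3K9ac gave 17 of 45 (7 to 17), the 7 coming from lists cut to the length of the shortest, a setting chosen after seeing the data that removes peaks by construction. Hspa8 kept 7 of its 10 H3K4me3 lists with a window of 250 bp or an overlap of 250 bp, and the single Hspa1l and Hspa1a peak was lost with lists of equal length or with the wider peaks of each list. Hspa1b went from 3 H3K4me3 lists to 2 with an overlap of 250 bp and to 1 with lists of equal length or with the wider peaks. Counting all transcripts gave Hspa9 a peak in 1 H3K4me3 list. With no heights in the lists, what depth limits cannot be set in numbers.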
